A study of Mus musculus with 4 samples.

Results

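The long noncoding RNAs (lncRNAs) Malat1, Neat1, Meg3, Miat, Rian and Snhg11 were chosen by symbol as RNAs that stay in the nucleus, and were followed across the cell classes of the adult mouse brain and between brains dissociated with and without inhibitors of transcription. Of the 6 genes named, 5 had a row among the 31053 genes of the count matrices, and Rian was not analysed here. The animals were 4 male mice of the strain C57BL/6J, aged to postnatal day 90. Their whole brains were perfused, dissected and digested with enzymes at a warm temperature, and each gave 1 droplet library (10x Genomics 3′ chemistry). The no-inhibitors group was 2 animals whose tissue saw no drug at any step. In the inhibitors group, also 2 animals, actinomycin D and triptolide, which block transcription, were present from perfusion onward, and anisomycin, which blocks translation, was added during dissection and digestion. Meninges were removed as far as possible, debris was cleared on a gradient, no cells were sorted, and the labels put all 4 libraries in 1 batch. The inhibitors were a combination, so no effect can be assigned to 1 drug.

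The libraries held 5134359 to 7529804 unique molecular identifiers (UMIs, tags that each mark 1 captured RNA molecule). Of 12487 barcodes, 9861 cells were kept, 2089 to 2810 per animal, with a median of 1440 to 1685 UMIs per cell. Between 31 and 36 barcodes of each library also occurred in another library. Cells were named by marker genes other than the lncRNAs described here, so that "microglia-like" means a cluster that carried microglial markers. Of 14 classes, 9 had at least 20 cells in every animal and are compared below. The macrophage/monocyte-like class also held T cell genes such as Cd3e, and olfactory ensheathing-like cells came only from the first animal of each group.

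Malat1 gathers in nuclear speckles, bodies beside active genes that store splicing factors. Neat1 is the scaffold of paraspeckles, bodies that form around its long transcript as it is made. Meg3 and Rian come from the maternally expressed strand of the imprinted Dlk1-Dio3 region, Miat forms its own nuclear bodies in neurons, and Snhg11 hosts small nucleolar RNAs. The GENCODE M21 annotation used here labels Snhg11 as protein coding, and Malat1, Neat1, Meg3 and Miat as long intergenic noncoding RNAs. Because such RNAs leave the nucleus little or not at all, the amount of Malat1 or Neat1 in a droplet is often read as a measure of how much nucleus was captured. Blocking transcription removes an RNA at the pace at which it decays, so short-lived RNAs fall first.

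The method captures RNA by runs of adenine, and the ends of Malat1 and Neat1 differ in where these runs come from. The long transcripts of both genes end without an added poly(A) tail and are closed by a triple helix that holds a stretch of adenines encoded in the genome, whereas the short Neat1 transcript is cleaved and polyadenylated like an mRNA. These 3 stretches are shown because they hold the adenines or the signal that a 3′ count of either gene can start from. They were read from the minus strand of GRCm38 with GENCODE M21 transcripts. For Malat1 (exon, chr19:5795982-5796069) the capitals mark the run of 12 adenines, for the long Neat1 transcript (exon, chr19:5824708-5824797) the 5 adenines before its end, and for the short Neat1 transcript (exon, chr19:5842307-5842366) the polyadenylation signal AATAAA.
Malat1: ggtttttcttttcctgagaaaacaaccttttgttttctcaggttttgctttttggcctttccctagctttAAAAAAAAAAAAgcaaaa
Neat1 long: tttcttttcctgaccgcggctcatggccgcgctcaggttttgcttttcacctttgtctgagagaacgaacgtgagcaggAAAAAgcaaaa
Neat1 short: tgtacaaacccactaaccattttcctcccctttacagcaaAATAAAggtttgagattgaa

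In both long transcripts the run of adenines is followed by gcaaaa, and both hold the motif ggttttgctttt upstream of it. The Malat1 run was the only one of 8 or more adenines in its annotated transcript, which goes on from the last base shown (6691) to base 6983 and holds AATAAA 22 bases before that end. In all, 4.07% of 141767 annotated transcripts hold a run of 12 or more. The long Neat1 transcript, of 20771 bases, had no run of 8 or more, and its longest was 7. Meg3, in a transcript of 14548 bases, held 7 runs of 8 or more adenines, Snhg11 held 3 and Miat none. In the short Neat1 transcript, of 3004 bases, the signal began 20 bases before the end. Malat1 (chr19:5795690-5802672) and Neat1 (chr19:5824708-5845478) are neighbours on chromosome 19, with 22035 bases between them, and both are read from the minus strand. How far each end was primed in these libraries cannot be told from counts per gene.

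Malat1 was among the most abundant RNAs of nearly every class and was close to missing from 1. Levels are in CPM, a gene's UMIs over all UMIs of a class sum on a scale where 10000 CPM is 1% of the UMIs, given as mean ± SD over 4 animals, and classes were compared as a description, since they are clusters of the same cells. Astrocyte-like cells were highest at 137336 ± 8148 CPM, with 148349 and 128766 CPM without inhibitors and 135263 and 136967 CPM with them, so that 13.7% of their UMIs were Malat1. Oligodendrocyte-like cells followed at 105508 ± 14187 CPM, below every astrocyte-like value. Mural-like (72506 ± 5208), microglia-like (66328 ± 5386), endothelial-like (60090 ± 4677) and neuron-like (55619 ± 3766) cells followed, each overlapping its neighbour in this order. Macrophage/monocyte-like (34108 ± 7895) and ependymal-like (32694 ± 4855) cells overlapped each other and lay below the neuron-like values in all 4 animals. Choroid plexus epithelial-like cells held 1942 and 2308 CPM without inhibitors and 742 and 997 CPM with them. Their mean of 1497 CPM was 21.8-fold below that of ependymal-like cells, the next class up, and no value overlapped. Among the smaller classes, olfactory ensheathing-like (114291 CPM, 2 animals) and oligodendrocyte precursor-like (113177 CPM) cells were near oligodendrocyte-like cells.

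Neat1 ranked the classes in another order. Oligodendrocyte-like cells were highest in all 4 animals, at 737 and 855 CPM without inhibitors and 739 and 764 CPM with them. They held 36.5% of all Neat1 UMIs but 13.4% of all UMIs. Macrophage/monocyte-like cells came next at 435 ± 169 CPM, with no overlap. From there each class overlapped the next one in the order: endothelial-like 347 ± 17.7, mural-like 328 ± 51.8, astrocyte-like 230 ± 50.9, neuron-like 141 ± 76.0, ependymal-like 135 ± 28.0, microglia-like 96.3 ± 22.5 and choroid plexus epithelial-like 54.6 ± 22.5 CPM. Fibroblast-like cells, too few in 1 animal to be tested, had 630 ± 80.3 CPM. Neural progenitor-like cells had 3 Neat1 UMIs in 106 cells.

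Malat1 and Neat1 ranked the classes differently. Each animal's ratio of Malat1 UMIs to Neat1 UMIs was 724 ± 215 in microglia-like and 616 ± 109 in astrocyte-like cells, 137 ± 21.5 in oligodendrocyte-like cells and 26.5 ± 3.13 in choroid plexus epithelial-like cells. The ranges of these classes did not overlap, other than those of microglia-like and astrocyte-like cells. Other tested classes filled the gaps. Neuron-like cells (218 to 677) overlapped microglia-like and astrocyte-like cells. Endothelial-like (156 to 199), ependymal-like (153 to 332) and macrophage/monocyte-like cells (43.0 to 163) overlapped oligodendrocyte-like cells. Mural-like cells had 180 to 295. The UMI counts are not scaled by length, and the 2 genes end differently, so the ratio describes captured molecules and is compared only between classes.

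Meg3, Miat and Snhg11 were neuronal. Meg3 had 10151 and 15997 CPM without inhibitors and 10392 and 10685 CPM with them in neuron-like cells, a mean 24.1-fold above the next class. Ependymal-like cells had 491 ± 96.9 CPM and mural-like cells 314 ± 72.6 CPM, which overlapped, and astrocyte-like cells had 67.8 ± 29.7 CPM. Snhg11 reached 3227 and 5408 CPM without inhibitors and 3652 and 3958 CPM with them in neuron-like cells, 63.2-fold above the mean of mural-like cells. Miat was the rarest, with 221 and 636 CPM without inhibitors and 404 and 321 CPM with them in neuron-like cells, against 16.8 ± 20.2 CPM in ependymal-like cells. Neuron-like cells were 3.16% of all cells and held 78.8% of Meg3, 86.4% of Snhg11 and 70.6% of Miat UMIs. For all 3, the 4 neuron-like values lay above every value of every other tested class.

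Among the smaller classes, neural progenitor-like cells had 1249 ± 372 CPM of Meg3 and 54.1 ± 29.1 CPM of Miat, but only 5 Snhg11 UMIs, all from 1 animal. Oligodendrocyte precursor-like cells had 425 ± 216 CPM of Meg3. Fibroblast-like cells had 137 ± 40.5 CPM of Snhg11, from 90.7 to 181 CPM in the 4 animals, with 22.9 ± 13.6 CPM of Meg3. Miat had 0 UMIs in the 163 macrophage/monocyte-like cells, which allows a share of up to 1.84% of such cells with a UMI, by counting error only.

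**Figure D1:**
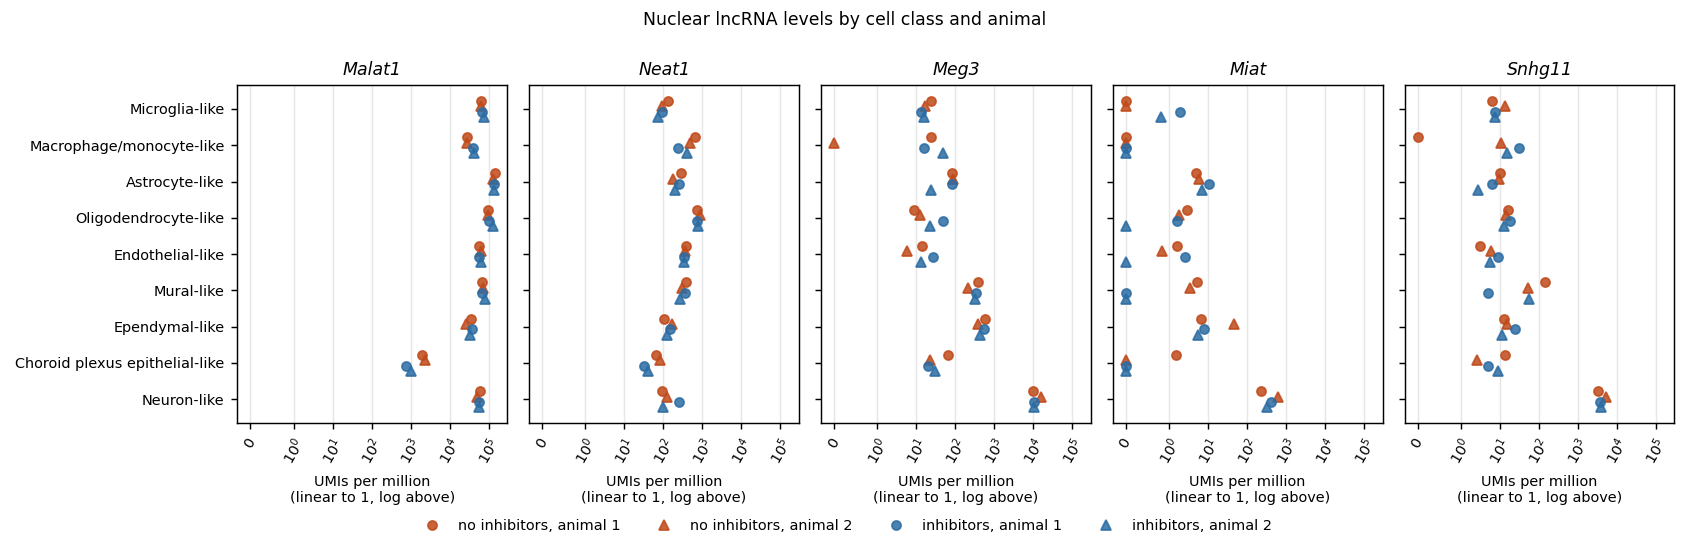
Level of each lncRNA (x axis, CPM, linear up to 1 and logarithmic above) in the 9 tested classes (y axis), 1 point per animal, with colour for the group and shape for the animal number. Malat1 lies between 25721 and 148349 CPM in 8 classes and between 742 and 2308 CPM in choroid plexus epithelial-like cells, and Meg3, Miat and Snhg11 are highest in neuron-like cells in every animal.

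To compare single cells, each was reduced at random to 1000 UMIs, and cells with fewer were not used, which removed 171 of 312 neuron-like cells, 107 of 621 choroid plexus epithelial-like cells and 488 of 3259 microglia-like cells. The median cell then held 145 Malat1 UMIs among astrocyte-like, 100 among oligodendrocyte-like, 67 among microglia-like and 56 among neuron-like cells. Astrocyte-like cells were also widely spread, with the 5th percentile at 21.6 and the 95th at 278 UMIs, against 33 and 107 in microglia-like cells. Among choroid plexus epithelial-like cells the median was 0, and 452 of 514 (87.9%, 82.8% to 93.8% per animal) held 0 or 1 Malat1 UMI. In all other cells 113 of 7911 (1.43%) did. The class nearest to it was ependymal-like, the other ciliated lining of the ventricles, with 19 of 173 (11%).

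**Figure D2:**
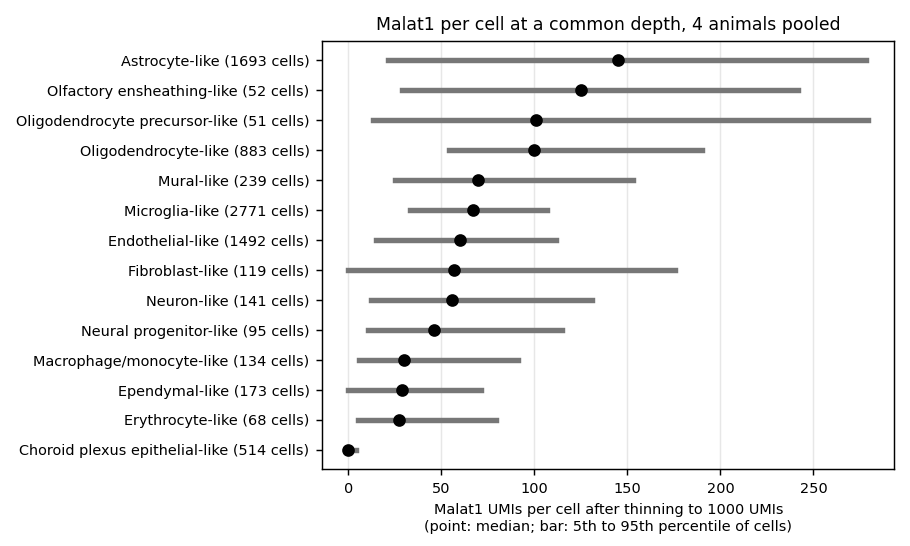
Malat1 UMIs per cell after thinning every cell to 1000 UMIs (x axis) by class (y axis), cells of 4 animals pooled, with the median as a point and the 5th to 95th percentile as a bar. Astrocyte-like cells have the highest median, 145 UMIs, and choroid plexus epithelial-like cells the lowest, 0 UMIs.

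At this depth Neat1 was seen in 50.1% of oligodendrocyte-like cells (44.7% to 55.8% per animal) and in 8.01% of microglia-like cells (6.45% to 10.1%). Meg3 was seen in 92.2%, Snhg11 in 73.0% and Miat in 19.1% of neuron-like cells. In microglia-like cells, which should lack them, the shares were 1.55%, 0.938% and 0.0722%, with median depths of 1382 UMIs in all microglia-like and 910 UMIs in all neuron-like cells before thinning. Before thinning, 94.6%, 80.4% and 33.7% of neuron-like cells and 1.87%, 1.10% and 0.0921% of microglia-like cells held the 3 RNAs. Meg3 was also seen in 48.4% of neural progenitor-like, 30.1% of ependymal-like and 22.6% of mural-like cells. Snhg11 was seen in 17.6% of fibroblast-like cells.

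Part of these counts sat in single cells. In mural-like cells 81.5% and 93.3% of the Snhg11 UMIs of the animals without inhibitors came from 1 cell each. Meg3 was spread more evenly there, with 19 to 34 cells holding it in each animal, although 1 cell gave 49.3% of the UMIs in the first animal without inhibitors. In neuron-like cells no single cell gave more than 15% of the UMIs of Meg3, Snhg11 or Miat in any animal.

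Malat1 was low in both parts of the choroid plexus epithelial-like class, but 37 very deep cells held 2687 of its 3596 Malat1 UMIs. These cells formed 1 cluster (median 12000 UMIs). It had 7792 and 5493 CPM of Malat1 without inhibitors and 5294 and 3516 CPM with them, and each of its cells held Malat1. The other 584 cells (median 1943 UMIs) had 397 and 899 CPM without inhibitors and 268 and 608 CPM with them, and 377 of them (64.6%) had no Malat1 UMI. Within the class, Malat1 rose with mitochondrial share. As a percent of non-mitochondrial UMIs, it averaged 0.0196% in the cells of lowest mitochondrial share, 0.0613% in the middle group and 0.348% in those of highest share. It was higher in the last than in the first in 4 of 4 animals. After thinning, cells with more than 1 Malat1 UMI were those of greater original depth (median 7186 against 2378 UMIs). Their median mitochondrial share was 11.8% against 4.92%. Markers of microglia, astrocytes, endothelial cells and oligodendrocytes, 8 genes for each with none at 0, were summed in choroid plexus epithelial-like cells and stood at 1.89% to 12.3% of their level in the other cells. Malat1 stood at 0.932% to 3.03% of its level in the other cells, measured in the same way. Ttr, the transthyretin made by this epithelium, took 20.3% to 34.9% of the class's UMIs. With mitochondrial, Ttr and hemoglobin UMIs left out of the total, Malat1 was still 0.103% to 0.349% of UMIs in this class against 6.50% to 7.80% in microglia-like cells.

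Over all barcodes, with classes mixed, Malat1 was highest at intermediate mitochondrial shares. In all 12487 barcodes, Malat1 made up 1.15% ± 0.456 of non-mitochondrial UMIs where mitochondrial genes took less than 2% of UMIs, 6.78% ± 0.774 at 2 to 5%, 8.59% ± 0.553 at 5 to 10%, 8.40% ± 0.963 at 10 to 20%, 5.27% ± 0.220 at 20 to 40%, 1.99% ± 0.963 at 40 to 60% and 0.132% ± 0.0344 above 60% (SD, n = 4 animals). The lowest bin was unlike the rest: hemoglobin took 63.2% of its non-mitochondrial UMIs, and of its 268 kept cells 115 were choroid plexus epithelial-like, 95 microglia-like and 26 erythrocyte-like. Above 40% the fall was seen in every animal, in 88 and 46 barcodes in all. Classes also differed in mitochondrial share, with a median of 4.31% in microglia-like cells and 10.4% in astrocyte-like cells, the class with the most Malat1. The part of cell makeup in the differences between bins was not tested.

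Neat1 differed from Malat1 mainly around the filter limit. It made up 0.00226% ± 0.00102 of non-mitochondrial UMIs below 2% mitochondrial share, 0.0214% ± 0.00117 at 2 to 5%, 0.0374% ± 0.00396 at 5 to 10% and 0.0317% ± 0.00358 at 10 to 20%, so both RNAs were higher at 5 to 10% than below it. At 20 to 40%, where Malat1 was lower than at 10 to 20%, Neat1 was higher in all 4 animals, at 0.0668% ± 0.00289. It was 0.0774% ± 0.0425 at 40 to 60% and 0.0106% ± 0.0212 above 60%, with 0 Neat1 UMIs in 3 of 4 animals in that last bin, where Malat1 was also lowest. The 980 barcodes over 20% mitochondrial UMIs, which a usual filter removes, were compared with the 10067 barcodes that passed. Malat1 fell from 7.60%, 7.17%, 7.79% and 8.93% of non-mitochondrial UMIs to 5.14%, 4.95%, 4.71% and 4.92%, a log2 difference of -0.67 ± 0.15 (SD, n = 4) and lower in 4 of 4 animals. Neat1 went from 0.0311%, 0.0284%, 0.0303% and 0.0313% to 0.0670%, 0.0697%, 0.0646% and 0.0650%, a log2 difference of 1.14 ± 0.11 and higher in 4 of 4 animals. For each, an exact sign-flip permutation test over 4 animals (two-sided) gave a p of 1 in 8, the smallest that 4 animals allow. Removed barcodes were shallower (median 834 against 1597 UMIs), and Ttr took 7.09% of their non-mitochondrial UMIs against 3.13%. The neuronal RNAs were also higher in them, Meg3 at 0.143% against 0.0420% and Snhg11 at 0.0464% against 0.0132%. The neuronal mRNA Snap25 stood at 0.0210% against 0.00765%. These values alone do not show whether cell makeup differed between removed and passing barcodes. The part of cell makeup in the Malat1 and Neat1 differences was not tested on the removed barcodes, which have no class.

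**Figure D3:**
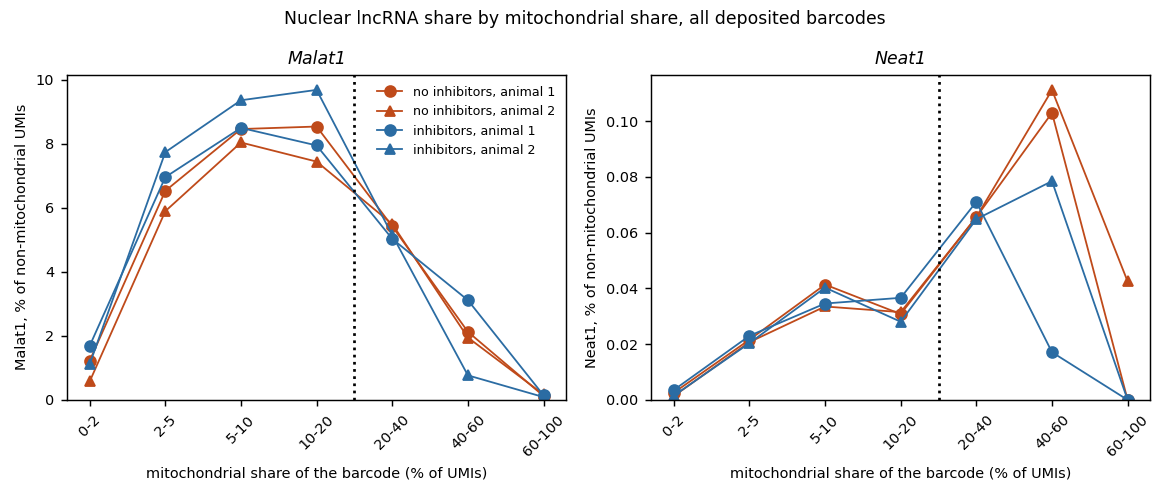
Malat1 (left) and Neat1 (right) as a percent of non-mitochondrial UMIs (y axes, different scales) against the mitochondrial share of the barcode in 7 bins (x axis, percent of UMIs), 1 line per animal, with a dotted line at the filter limit of 20%. Malat1 peaks between 5 and 20% in every animal and falls to 0.132% above 60%, while Neat1 is higher at 20 to 40% than at any lower share in every animal and averages 0.0106% above 60%; the 2 highest bins hold 88 and 46 barcodes.

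Within classes, where cell makeup is held closer, the same opposition was seen in part. Kept cells of each class were pooled over the 4 animals and split into 3 groups of near-equal size by mitochondrial share. The cut points were shared, so the group sizes within an animal could differ. Malat1 was lower in the group of highest share than in that of lowest share in 4 of 4 animals in astrocyte-like (log2 difference -0.48 ± 0.14), ependymal-like (-0.43 ± 0.32), endothelial-like (-0.23 ± 0.10), mural-like (-0.22 ± 0.12), oligodendrocyte-like (-0.13 ± 0.071) and microglia-like cells (-0.084 ± 0.023). Neuron-like cells went the other way (0.48 ± 0.14, higher in 4 of 4), as did choroid plexus epithelial-like cells. Neat1 was higher in the group of highest share in 4 of 4 animals in oligodendrocyte-like cells, where it went from 0.0675% to 0.106% of non-mitochondrial UMIs (log2 difference 0.65 ± 0.091). The same held in astrocyte-like (0.54 ± 0.14) and ependymal-like cells (1.26 ± 0.97). In microglia-like and endothelial-like cells Neat1 was higher in 2 of 4 animals. None of these splits can reach an exact p below 1 in 8. Malat1 also differed with depth, in a direction that depended on the class. Between the cells with the most and the fewest UMIs it was lower in 4 of 4 animals in microglia-like (-0.46 ± 0.11), mural-like (-0.58 ± 0.053) and macrophage/monocyte-like cells (-0.76 ± 0.29). It was higher in 4 of 4 animals in neuron-like (0.68 ± 0.36), ependymal-like (1.19 ± 0.94) and endothelial-like cells (0.16 ± 0.15). Neat1 was lower in the deepest cells in 4 of 4 animals in oligodendrocyte-like (-0.50 ± 0.24) and macrophage/monocyte-like cells (-1.03 ± 0.24). In mural-like cells Neat1 was higher in 4 of 4 (0.78 ± 0.50). Its direction with depth differed between animals in microglia-like, astrocyte-like, endothelial-like, ependymal-like and choroid plexus epithelial-like cells.

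Droplets also hold RNA that floats free from broken cells. The 3 neuronal lncRNAs were compared, in cells that are not neurons, with 8 neuronal mRNAs (Snap25, Syt1, Rbfox3, Stmn2, Gad1, Slc17a7, Syp and Nrxn3), each as a percent of its own level in neuron-like cells of the same animal. In microglia-like cells the median neuronal mRNA stood at 1.36% (1.15% to 1.55% in the 4 animals). Meg3 stood at 0.240%, 0.103%, 0.129% and 0.145%, a mean of 0.154%. Snhg11 stood at a mean of 0.210% and Miat, from 3 UMIs, at 0.182%. All 3 lay below the median mRNA in 4 of 4 animals.

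Endothelial-like cells gave the same order, with Meg3 at 0.138%, Snhg11 at 0.151% and Miat at 0.376% against 1.13% for the median mRNA, lower in 4 of 4 animals. Stmn2 was an exception among the mRNAs, at 35.7% there and 37.4% in mural-like cells. In oligodendrocyte-like cells Meg3 (0.208%) and Snhg11 (0.397%) were below the median mRNA (0.937%) in 4 of 4 animals and Miat (0.493%) in 3 of 4. In astrocyte-like cells Meg3 (0.583%) and Snhg11 (0.181%) were below 2.14% in 4 of 4 animals, and Miat (2.00%) was below in 2 of 4. The order was the opposite for Meg3 in 2 classes and for Miat in 1. Meg3 stood at 2.84% against 1.57% in mural-like cells and at 4.40% against 0.922% in ependymal-like cells, higher in 4 of 4 animals. Miat, from 16 UMIs, stood at 3.51% in ependymal-like cells, also higher in 4 of 4 animals. Single mRNAs had means above that of Meg3 in both classes. They were Stmn2 (37.4%) and Rbfox3 (3.56%) in mural-like cells, and Stmn2 (11.8%) and Nrxn3 (9.33%) in ependymal-like cells. The means of the other mRNAs lay below it. In macrophage/monocyte-like and choroid plexus epithelial-like cells the median mRNA was at 0 in at least 1 animal, and no order was read there. The 8 mRNAs are the markers by which neuron-like cells were named, so the values are a description.

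**Figure D4:**
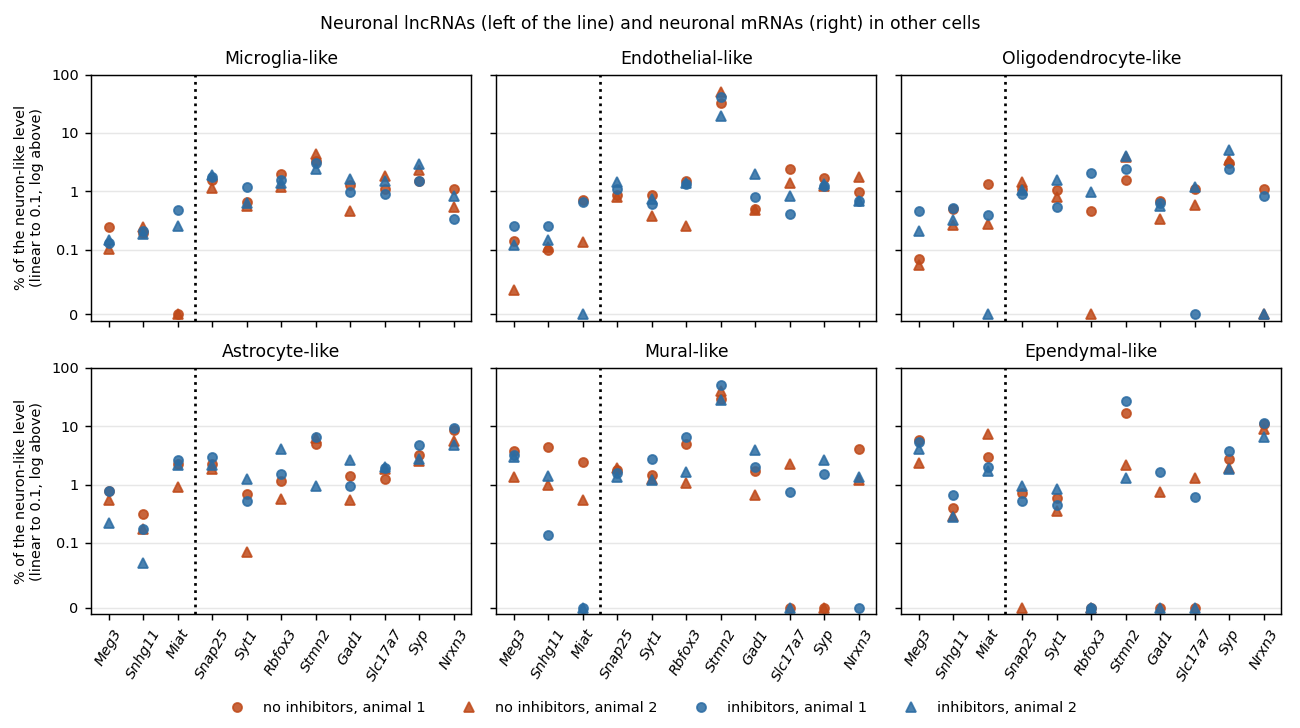
Level of Meg3, Snhg11 and Miat (left of the dotted line) and of 8 neuronal mRNAs (right) in 6 other classes, as a percent of their level in neuron-like cells of the same animal (y axis, linear up to 0.1 and logarithmic above), 1 point per animal. In microglia-like cells Meg3 averages 0.154% and Snhg11 0.210% against 1.36% for the median mRNA, whereas in ependymal-like cells Meg3 averages 4.40% against 0.922%.

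Genes most like each lncRNA across the 36 sums (9 classes in 4 animals) were found among 7673 genes by Pearson's r of log2(CPM + 1). These sums share 4 libraries, and the values are a description. For Malat1 they were Pnisr (0.92), which codes for a serine- and arginine-rich nuclear protein, Riok1 (0.92) and Ssr2 (0.90). For Neat1 they were Slc44a1 (0.82), a choline transporter used by myelinating cells, Rnf141 (0.81) and Pea15a (0.79). Meg3 went with Cplx2 (0.88) and Ryr2 (0.87), which code for a synaptic fusion protein and a calcium release channel. Miat went with Sv2b (0.90), Elavl2 (0.90) and Ttc3 (0.89), and Snhg11 with Trank1 (0.90), B230334C09Rik (0.89) and Celf3 (0.88). Among the lncRNAs, Meg3, Miat and Snhg11 had r of 0.82 to 0.84 with each other, Malat1 and Neat1 had 0.62, and pairs across these 2 sets lay between -0.25 and 0.21.

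Meg3 is the only one of the 3 neuronal lncRNAs whose promoter held the motifs searched, and is shown for that reason. The window runs from 250 bases before to 50 after the annotated start (RefSeq, GRCm38.p6, chr12:109540746-109541045, plus strand). Capitals mark, in order, CCAAT at 100 bases before the start, the cyclic AMP response element TGACGTCA at 57, and TATAAA at 25, which overlaps a second match to TATAAA on the other strand.
Meg3 promoter: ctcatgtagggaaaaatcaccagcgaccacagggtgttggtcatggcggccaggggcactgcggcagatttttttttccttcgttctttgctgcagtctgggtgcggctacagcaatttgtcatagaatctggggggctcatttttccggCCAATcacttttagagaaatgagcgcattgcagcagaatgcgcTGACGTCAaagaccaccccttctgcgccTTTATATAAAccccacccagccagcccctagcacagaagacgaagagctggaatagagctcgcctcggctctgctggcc

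Searched on both strands, TGACGTCA was present in 1.79%, TATAAA in 13.6% and CCAAT in 37.4% of 32851 promoter windows of the same length. The windows of Miat and Snhg11 held none of the 3. A match is a description of the letters, not of binding.

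In the sums over all cells, none of the 5 lncRNAs passed the test between the groups. Malat1 was 71136 and 66834 CPM without inhibitors and 72606 and 83580 CPM with them, so both animals with inhibitors were the higher ones, at a log2 fold change of -0.11 ± 0.084 (SE). Groups that did not overlap were found for 40.8% of all genes tested. Fold changes are without over with inhibitors. Neat1 was 288 and 265 CPM without and 283 and 295 CPM with inhibitors (0.0092 ± 0.095), and the groups overlapped. Meg3 (0.26 ± 0.23), Snhg11 (0.17 ± 0.23) and Miat (0.090 ± 0.22) overlapped as well. By edgeR's quasi-likelihood test, 0 of 5 passed a Benjamini-Hochberg adjusted p of 0.05 with a log2 change over 0.58, 0 of 5 had an unadjusted p under 0.05, and DESeq2 called 0. In these sums 0.029% of 13782 genes were called. The p-values rest on 2 animals per group, with the spread of each gene estimated partly from the other genes tested.

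The same test was read for mRNAs known to be short-lived. The study reports several of them, such as Fos, Jun and Dusp1, as raised by enzymatic digestion without inhibitors. Blocked induction and decay cannot be told apart in these values. Of 26 such mRNAs tested in all cells, 3 were higher without inhibitors and 0 lower: Zfp36 (2.07 ± 0.17, adjusted p = 0.0130 by edgeR), Junb (2.04 ± 0.16, adjusted p = 0.0130) and Socs3 (1.82 ± 0.20, adjusted p = 0.0433). Of the 26, 16 had a log2 fold change above 0, and their median was 0.35, against -0.0076 over all genes tested. In microglia-like cells 13 of 24 were higher and 0 lower, with a median of 1.75 against -0.00063 over all genes, and Dusp1 (5.68 ± 0.22), Ier2 (2.94 ± 0.19) and Zfp36 (2.85 ± 0.13) changed most among those called. The list was chosen with results of these libraries known, so it is not independent evidence of its direction. Beside them in the same cells, Malat1 had 61908 and 63372 CPM without inhibitors and 66046 and 73988 CPM with them (-0.13 ± 0.11, adjusted p = 0.942 by edgeR). Neat1 had 127 and 93.4 CPM without and 91.2 and 73.4 CPM with inhibitors (0.45 ± 0.16, adjusted p = 0.302 by edgeR), with no overlap between groups, and did not pass. In microglia-like cells 0.547% of 8774 genes were called. The short-lived mRNAs did not move in every class. Called higher were 4 of 13 in macrophage/monocyte-like (median 2.14), 3 of 12 in oligodendrocyte-like (0.22) and 2 of 20 in mural-like cells (0.034). In endothelial-like cells 0 of 22 were called (median -0.15), in astrocyte-like 0 of 13 (-0.13) and in neuron-like 0 of 9 (-0.0066). The same held for 0 of 10 in ependymal-like (0.044) and 0 of 7 in choroid plexus epithelial-like cells (-0.21).

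Related RNAs and proteins were counted in the same way. Of 15 further nuclear lncRNAs tested in all cells (Kcnq1ot1, Tug1 and others), 0 were called, with a median log2 fold change of 0.17. In microglia-like cells 1 of 7 was called, Gm26917, lower without inhibitors (-0.72 ± 0.19, adjusted p = 0.0240 by edgeR). Of the snoRNA host RNAs, the family of Snhg11, 0 of 7 in all cells and 0 of 6 in microglia-like cells were called. For the proteins of paraspeckles (15 tested) and of nuclear speckles (20 tested), where Neat1 and Malat1 reside, 0 were called in either. In the Dlk1-Dio3 region 3 genes could be tested in all cells, with 0 called. They were Dlk1 (0.39 ± 0.64), Mirg (0.52 ± 0.34) and Meg3 itself (0.26 ± 0.23). Mirg is also 1 of the 15 lncRNAs above.

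Class by class, 30 of the 45 pairs of a lncRNA and a class had enough counts to be tested, and 2 were called. In 10 of the 30 the groups did not overlap (33.3%), against 35.4% of all 49059 gene and class pairs tested, so the share was near the background. An unadjusted p under 0.05 by edgeR was found for 7 of the 30, against 7.27% of all pairs. In astrocyte-like cells 0.0359% of all genes tested were called, in endothelial-like cells 0.0359%, in oligodendrocyte-like cells 0.201%, in mural-like cells 0.091%, in neuron-like cells 0.0684%, in macrophage/monocyte-like cells 0.432% and in ependymal-like cells 0%. For ependymal-like cells this was 0 of 4209 genes by edgeR and 0 by DESeq2, with 163 at an unadjusted p under 0.05. In neuron-like cells, where the 3 neuronal lncRNAs are made, Meg3 (0.29 ± 0.16), Miat (0.16 ± 0.41) and Snhg11 (0.16 ± 0.24) did not pass, and each had overlapping groups.

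Both calls were in choroid plexus epithelial-like cells. Malat1 had 1942 and 2308 CPM without inhibitors against 742 and 997 CPM with them (1.5 ± 0.10, adjusted p = 3.4478e-11 by edgeR). Neat1 had 65.6 and 80.8 CPM without against 32.6 and 39.5 CPM with inhibitors (1.24 ± 0.31, adjusted p = 0.0121 by edgeR), from 128 UMIs in all. In neither did the groups overlap. This class called more than any other, 4.68% of 4638 genes, 179 higher and 38 lower without inhibitors. Scaled by total UMIs alone the split was 81 and 138, the median of all genes shifted from -0.016 to -0.19, and Malat1 stood at 1.31, while Neat1 (1.05, adjusted p = 0.0514 by edgeR) was no longer called. With a stricter filter on cells Malat1 was not called either (1.48, adjusted p = 0.25 by edgeR). The cluster of 37 deep cells was unevenly spread: it gave 20.9% and 30.7% of the class's UMIs without inhibitors (11 and 19 cells) and 9.42% and 13.4% with them (4 and 3 cells). With that cluster left out, a choice made after seeing the data, Malat1 was 0.85 ± 0.65 (adjusted p = 0.615 by edgeR) and Neat1 0.032 ± 0.48 (adjusted p = 0.984 by edgeR), and neither was called. Within that cluster the 2 values of Malat1 without inhibitors also lay above the 2 with them, as given above. An exact test of 2 against 2 cannot go below 0.333.

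Of the 30 pairs, 5 had groups that did not overlap, a log2 fold change over 0.58 and at least 20 UMIs, a condition that 8.79% of all gene and class pairs met. They were both called pairs and 3 others. Malat1 in macrophage/monocyte-like cells had 27634 and 27273 CPM without against 38546 and 42977 CPM with inhibitors (-0.62 ± 0.13, adjusted p = 0.156 by edgeR), which is higher with the inhibitors. Neat1 in the same cells had 643 and 470 CPM without against 237 and 393 CPM with inhibitors (0.76 ± 0.35, adjusted p = 0.844 by edgeR), so the 2 nuclear RNAs differed in direction in the same sums. Meg3 in oligodendrocyte-like cells had 8.70 and 12.3 CPM without against 48.3 and 21.9 CPM with inhibitors (-1.70 ± 0.43, adjusted p = 0.0543 by edgeR). That rested on 63 UMIs, and 30 of the 31 UMIs of the highest animal were in 1 cell. Without that animal it was -1.12 (adjusted p = 0.739 by edgeR).

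**Figure D5:**
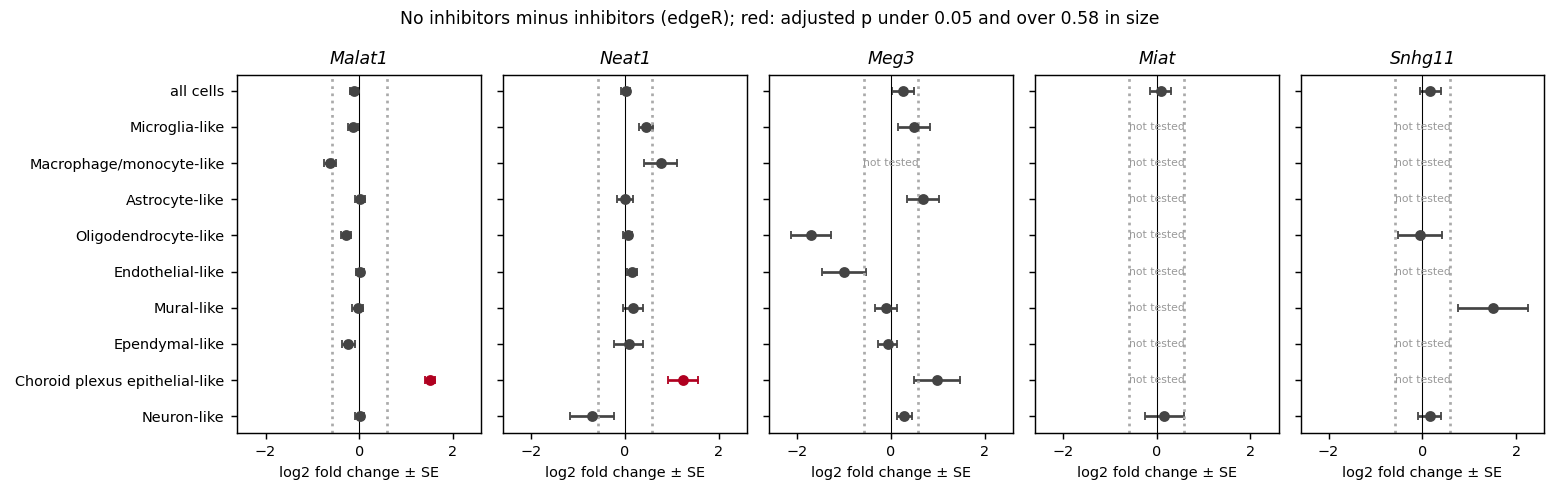
Log2 fold change, no inhibitors over inhibitors, of each lncRNA (x axis, edgeR estimate with its SE as a bar) in all cells and in 9 classes (y axis); red marks an adjusted p under 0.05 with a size over 0.58, dotted lines mark 0.58, and pairs with too few counts are given as not tested. Malat1 and Neat1 pass in choroid plexus epithelial-like cells, at 1.5 and 1.24, and no lncRNA passes in all cells.

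Whether the effect of the inhibitors differed between classes was tested itself, with all class-by-group terms together and the animal as a block, in which 0.463% of 12514 genes passed. Malat1 passed (adjusted p = 9.6815e-16 by edgeR), and so did Meg3 (adjusted p = 0.0024982 by edgeR). Neat1 (adjusted p = 0.257), Miat and Snhg11 (adjusted p = 1 for both, edgeR) did not. The effect on Malat1 in choroid plexus epithelial-like cells exceeded that in microglia-like cells by 1.73 ± 0.23 (adjusted p = 1.36928e-10 by edgeR), a contrast in which 0.256% of genes passed. Without the 37 deep cells Malat1 still passed the test over all classes, at an adjusted p of 0.00266 by edgeR. Meg3 rested on 1 cell: without the oligodendrocyte-like cell that held 30 Meg3 UMIs, its adjusted p was 1 by edgeR.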

How the data were processed

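Per the labels and the study's methods, the authors made raw UMI counts per gene and barcode with Cell Ranger 3.0.0 on mm10 (GRCm38) with Ensembl annotation, without introns, and deposited the called barcodes unfiltered. Introns left uncounted can lower RNAs caught before splicing. Barcodes with at least 400 genes and at most 20% mitochondrial UMIs were kept, doublets were removed by a simulated-neighbour score (206 barcodes), and cells were clustered (leidenalg 0.10.2) and named by fixed markers. UMIs were summed per animal and class. The test was edgeR's robust quasi-likelihood F test (version 4.0.16, R 4.3.3) on TMM-scaled sums after filterByExpr, with the group as sole term, adjusted over all genes tested and called at an adjusted p under 0.05 with a log2 change over 0.58. DESeq2 1.42.0, other scalings and filters, and leaving out each animal were alternatives. Code was tested on simulated data. CPM in the text is scaled by totals alone. The lncRNAs and lists were chosen with earlier results of these data known. Full statistics are given for a lncRNA that was called, or whose groups did not overlap with a log2 change over 0.58 and at least 20 UMIs. Of the 3 genes most like each lncRNA, 1 is not reported here. Of the genes on 2 of the lists, 7 of 22 nuclear lncRNAs and 11 of 18 snoRNA hosts had no row and were not analysed here. The animal numbers of the labels tie no animals together, and same-numbered animals deviated together only weakly (r = 0.0787), so they were not used as pairs.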

Additional observations from a re-analysis of the deposited data

Results flagged for a closer look

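The effect of the inhibitors differed between cell classes for Malat1 (adjusted p = 9.68e-16 by edgeR over all class-by-group terms). Malat1 was higher without inhibitors in choroid plexus epithelial-like cells (1.5 on the log2 scale) and lower without them in macrophage/monocyte-like cells (-0.62, not called). Against the effect in microglia-like cells, the former differed by 1.73 ± 0.23 and the latter by -0.25 ± 0.22 (unadjusted p = 0.261 by edgeR, which did not pass). The 37 deep choroid plexus epithelial-like cells were unevenly spread between the groups. Without those cells the choroid plexus epithelial-like value was 0.85 ± 0.65 (adjusted p = 0.615 by edgeR, not called), and the difference between classes had an adjusted p of 0.00266 by edgeR. The effect also differed between classes for Meg3 (adjusted p = 0.0025 by edgeR). That difference rested on 1 oligodendrocyte-like cell that held 30 of the 63 Meg3 UMIs of its class.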

How the results depend on the processing

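In all cells 0 lncRNAs were called under every alternative run. In class sums 2 were called, against 1 with DESeq2, 1 with the stricter cell filter, 0 without the deep choroid plexus-like cluster and 2 to 5 when each animal was left out, where the lone animal left in a group is assumed to vary like the other group. Without the second animal of the no-inhibitors group, Meg3 stood at 1.73 in choroid plexus epithelial-like cells and Snhg11 at 2.18 in mural-like cells. In the animal left in that group, 1 choroid plexus epithelial-like cell held 29 of the 42 Meg3 UMIs. There, 1 mural-like cell held 22 of the 27 Snhg11 UMIs. With a replicate block 3 were called, Meg3 in oligodendrocyte-like cells joining at -1.77 (adjusted p = 0.00386), and the block changed no other call of a lncRNA. The animal numbers tie no animals together. That Meg3 value also passed with total UMIs alone (-1.67), no filter on low counts (-1.68) and the stricter filter (-2.24), and had no value without the 1 cell. Malat1 in choroid plexus epithelial-like cells was 1.48 (adjusted p = 0.25) with the stricter filter and 1.27 to 1.69 when an animal was left out. Neat1 there was 1.05 (adjusted p = 0.0514) with total UMIs alone and 1.06 (adjusted p = 0.296) without the first inhibitors animal. DESeq2 gave it no adjusted p, and the stricter filter left it too few counts. Malat1 in macrophage/monocyte-like cells passed with doublets kept (-0.70) and without the first inhibitors animal (-0.72). Class dependence of Meg3 had an adjusted p of 0.232 with DESeq2 and 1 without the 1 cell.

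Near-zero changes in all cells turned sign: Neat1 was -0.064 with total UMIs alone, -0.080 with totals free of mitochondrial genes and these lncRNAs and -0.041 to 0.057 when an animal was left out, and Miat -0.00048 with those totals, -0.072 with doublets kept and -0.11 to 0.30 when an animal was left out. Leaving out an animal also gave -0.23 to 0.014 for Malat1, -0.13 to 0.56 for Meg3 and -0.15 to 0.43 for Snhg11. Over all genes, edgeR called 4 in all cells, against 38 with DESeq2, 163 with no filter, 35 with the block and 0 to 86 when an animal was left out. In choroid plexus epithelial-like cells it called 217, against 83 with DESeq2, 144 without the deep cluster and 128 without the first inhibitors animal. DESeq2 called 31 against 48 in microglia-like, 3 against 13 in oligodendrocyte-like and 8 against 4 in macrophage/monocyte-like cells, and the block gave 35 in oligodendrocyte-like, 11 in endothelial-like, 7 in ependymal-like, 1 in mural-like (against 4) and 0 in macrophage/monocyte-like cells. DESeq2 called 0 in endothelial-like, 2 in mural-like and 1 in neuron-like cells, and with no filter 27 were called in oligodendrocyte-like, 18 in macrophage/monocyte-like, 9 in mural-like and 7 in endothelial-like cells.

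The level of Malat1 in choroid plexus epithelial-like cells over the other classes was -5.94 on the log2 scale, -7.70 with the stricter filter and -6.88 after thinning, and that of Neat1 in oligodendrocyte-like cells 1.96 and 2.15 after thinning. Over the mitochondrial limit, Malat1 was -0.48 with a limit of 15% and -1.11 per all UMIs, and Neat1 0.73 with 15%, 1.49 with 25% and 0.70 per all UMIs. Thinned to 800 and 1500 UMIs, Neat1 was seen in 42.0% and 58.3% of oligodendrocyte-like and 6.19% and 10.7% of microglia-like cells, and at 1500 Meg3 in 97.6% and Snhg11 in 79.5% of neuron-like cells. Causes of these shifts were not tested. Depth left 15 of 45 pairs of a lncRNA and a class with too few UMIs to be tested.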

Other observations

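Other nuclear lncRNAs had class patterns of their own. Pantr1 was highest in astrocyte-like cells (480 CPM, next oligodendrocyte-like at 164 CPM), as was Rmst (183 CPM, next ependymal-like at 133 CPM). Kcnq1ot1, the antisense RNA of an imprinted region, was highest in neuron-like cells (386 CPM, 295 to 472 CPM in the 4 animals), with 193 CPM in ependymal-like cells. Mir124a-1hg, the host of a neuronal miRNA, had 374 CPM in neuron-like cells and at most 3.93 CPM in any other tested class. Mirg, which lies downstream of Meg3 in the Dlk1-Dio3 region, had 120 CPM in neuron-like cells and 9.42 CPM in ependymal-like cells, the same first 2 classes as Meg3. Among snoRNA hosts, Snhg18 was highest in mural-like cells (138 CPM) and Snhg20 in neuron-like cells (237 CPM).

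Erythrocyte-like cells, which should lack a nucleus, held 37117 ± 7800 CPM of Malat1, between 41.0% and 59.8% of the level in the other cells. Hemoglobin took 40.4% to 56.9% of their UMIs. With mitochondrial, Ttr and hemoglobin UMIs left out of the total, microglia-like cells had 6.50% to 7.80% Malat1. Erythrocyte-like cells then had 6.97% to 8.12%. Their endothelial markers stood at 138% to 285% of the level in the other cells, and they held 0 UMIs of Miat and Snhg11 in 70 cells, which allows up to 4.29% of such cells to hold a UMI, for each gene and by counting error only. Barcodes removed for few genes, in which hemoglobin took 53.4% to 78.2% of UMIs, held 2.55% to 4.96% Malat1 once mitochondrial, Ttr and hemoglobin UMIs were left out of the total.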
